A study of Canis lupus familiaris with 30 samples.

Results

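Transcripts of 7 genes, *STOML3*, *CAPN6*, *LRP2*, *SLC14A2*, *NFATC1*, *ANPEP* and *KCNJ15*, were followed across 30 primary thyroid carcinomas of dogs. They are 7 of the 30424 genes of the count table, each taken by its symbol. The genes were chosen by their values in these same tumors: an earlier analysis placed them far on the side of follicular cell thyroid carcinoma (FTC) against medullary thyroid carcinoma (MTC), and genes of hormone synthesis were left aside. That contrast is therefore no finding here, and the levels below are a description without a test.

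The study sequenced total RNA, with ribosomal RNA depleted, from frozen thyroid tumor tissue kept by a veterinary tumor biorepository. It asked how carcinomas arising from the hormone-producing follicular cells differ in expression from those arising from the calcitonin-producing C cells. The sample labels give the tissue and a tumor name (TC followed by a number) but no tumor type, age or treatment, so the tumors were kept as 1 set and no comparison of FTC with MTC was made. Each tumor gave 1 library, without a replicate, and every library is a mixture of tumor and other cells. Fewer cells of a type and less RNA per cell cannot be told apart in such tissue.

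Counts assigned to genes ranged from 12288945 to 45148677 per tumor, with a median of 25569678. Size factors, which scale a tumor's counts to the others, ran from 0.279 in TC538 to 1.62. A level below is log2 of the count divided by that factor, plus 1, so a difference of 1 is a doubling except where counts are near 0. Of 9 follicular markers, all had a row. Their mean level ran from 3.13 in TC1088 to 15.7 in TC1869, with a median of 12.62. The mean of 7 C-cell markers ran from 2.37 in TC902 to 15.3 in TC1936, with a median of 4.38. TC1088 was low for both lists, at 3.13 and 3.38, and the study's methods set it apart as an outlier. They describe it as the only sample that lost *NKX2-1*, a thyroid transcription factor. The thyroid markers of TC1088 were thus low although it is labelled as thyroid tissue. Values without TC1088 are added for named genes and markers whose call changes.

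Thyroid follicles are polarized epithelial sacs, and iodide enters at the base. Thyroglobulin, which carries the hormone, is stored in the lumen and taken back through the apical membrane. Several of these genes encode proteins of transporting epithelia and are best known from the kidney. LRP2 (megalin) is a very large endocytic receptor on apical membranes that binds thyroglobulin, among many ligands. SLC14A2 carries urea across the collecting duct, KCNJ15 (Kir4.2) is an inwardly rectifying potassium channel, and ANPEP (aminopeptidase N, CD13) is a surface peptidase of brush borders and myeloid cells. STOML3 is a stomatin-like membrane protein that tunes mechanosensitive channels in sensory neurons. CAPN6 belongs to the calpains but lacks their catalytic cysteine and binds microtubules, and NFATC1 is a transcription factor that enters the nucleus when calcineurin removes its phosphates.

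The 7 genes did not share 1 pattern. *NFATC1* was detected in every tumor and had the smallest spread, *STOML3* held at least 100 normalized counts in 23 tumors and 0 counts in 2, and *SLC14A2* and *ANPEP* were spread over a wide range. *CAPN6* and *KCNJ15* were low in most tumors and high in some, and *LRP2* was far higher in 6 tumors than in the rest. The SD of the level over the 30 tumors was 1.15 for *NFATC1*, and between 2.96 for *KCNJ15* and 3.92 for *CAPN6* for the other members.

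**Figure D1:**
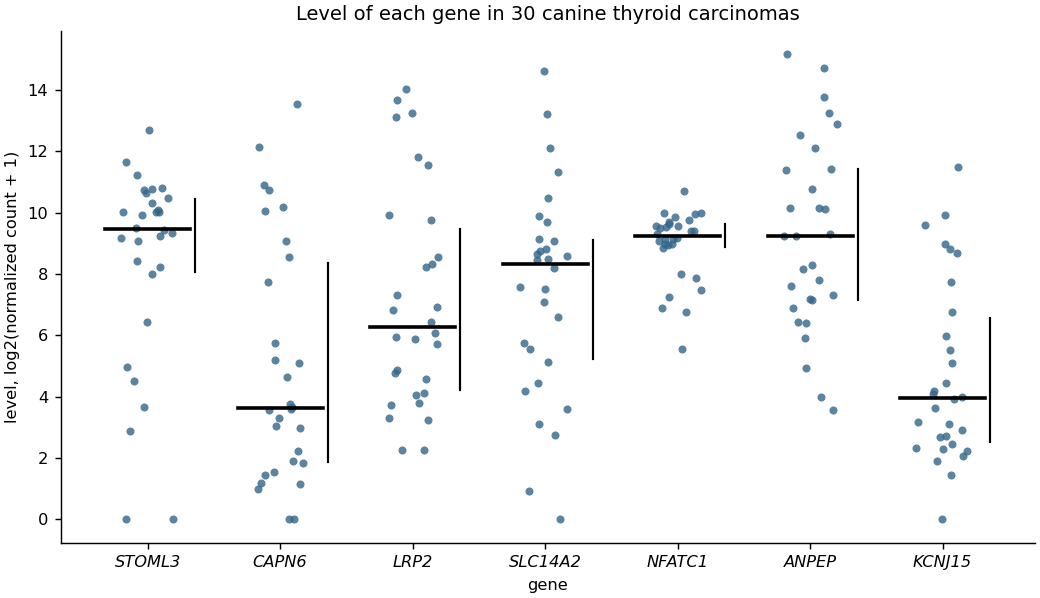
Levels of the 7 genes, as log2 of the normalized count plus 1 on the vertical axis, with 1 point per tumor and 30 tumors per gene. Thick lines are medians and thin vertical lines span the quartiles. *NFATC1* points crowd around 9.25, while *CAPN6* points reach from 0 to 13.53.

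*STOML3* (ENSCAFG00000006012) had a median level of 9.48, from 0 counts in TC1020 and TC2289 to 7648 counts in TC1869, a level of 12.71. Its quartiles were 8.06 and 10.44, and 23 of 30 tumors held at least 100 normalized counts. Above the tumors with 0 counts, the low end rose in steps. TC1473 held 7 counts, TC1936 11, TC1088 22, TC1601 35 and TC1241 85. A count of 0 allows up to 3 counts by counting error, or 2.90 normalized counts in TC1020 and 3.84 in TC2289. The *STOML3* level had a Spearman's rho of 0.44 with the size factor, the highest of the 7 genes with that measure, and the part of depth in its order was not tested.

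*NFATC1* (ENSCAFG00000000011) had a median level of 9.25, from 44 counts in TC1936 at a level of 5.57 to 1893 counts in TC1869 at 10.69. Quartiles were 8.88 and 9.62, and 22 of 30 tumors lay within 1 log2 unit of the median. Besides TC1936, 6 tumors lay below that range. TC2289 stood at 6.76, TC538 at 6.90, TC1473 at 7.25, TC1020 at 7.48, TC1088 at 7.88 and TC1601 at 8.01. TC538 also had the smallest size factor, and its 33 *NFATC1* counts were the fewest of any tumor.

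*SLC14A2* (ENSCAFG00000017672) ranged from 0 counts in TC1936 to 26592 counts in TC1744, a level of 14.60, with a median of 8.33. TC1994 followed at 13.20, TC1123 at 12.11, TC902 at 11.33 and TC1241 at 10.49. These 5 tumors held 87.1% of the normalized *SLC14A2* counts summed over all 30. At the other end, TC1473 held 1 count, and TC1020 and TC2289 held 6 counts each. The upper values were thus set by a handful of tumors, while 19 of 30 tumors still held at least 100 normalized counts.

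*LRP2* (ENSCAFG00000012128) had a median of 6.27, and ranged from 3 counts in TC2289 at a level of 2.28 to 11925 counts in TC1994 at 14.03. TC640, with 4 counts, had a level of 2.28 as well. Above 11 were TC1953 at 11.54, TC1744 at 11.81, TC2089 at 13.11, TC2402 at 13.25, TC2110 at 13.66 and TC1994. The next tumor, TC902, stood at 9.93, leaving a gap of 1.61 log2 units. The top 5 tumors held 88.6% of the summed normalized counts. The quartiles of 4.23 and 9.45 show that the tumors below this gap also differed widely among themselves.

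*ANPEP* (ENSCAFG00000012013) was counted in every tumor, from 11 counts in TC1088 at a level of 3.58 to 29781 counts in TC2089 at 15.15. Its median was 9.23, and the quartiles were 7.16 and 11.41. TC812 followed TC2089 at 14.72, then TC1953 at 13.76, TC22 at 13.23 and TC1241 at 12.87. The lowest after TC1088 were TC627 at 4.00 and TC1164 at 4.94, which had follicular marker means of 14.9 and 13.4. A low *ANPEP* level was thus not limited to tumors low in follicular markers.

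*CAPN6* (ENSCAFG00000018175) was at 0 counts in TC1869 and TC1994 and at 13173 counts in TC1953, a level of 13.53. The median was 3.64. In 10 tumors the count was 3 or lower and in 17 it was under 20 normalized counts, whereas 9 tumors held at least 100. From TC22 at 5.75 the levels jumped to TC640 at 7.74, a gap of 1.99. Above the gap were also TC1123, TC815, TC1213, TC67, TC1241, TC902, TC2089 and TC1953. TC1869, without a single *CAPN6* read, had the highest level of follicular markers, of *STOML3* and of *NFATC1* among the 30 tumors.

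*KCNJ15* (ENSCAFG00000009817) was the gene with the fewest tumors at high levels. Its median level was 3.96, its lowest value 0 counts in TC2289 and its highest 2576 counts in TC2288, a level of 11.50. TC538 at 9.93, TC1088 at 9.59, TC1979 at 8.97, TC67 at 8.83 and TC1593 at 8.67 came next. Only 8 of 30 tumors held at least 100 normalized counts and 18 held under 20. TC1088, where the follicular markers were lowest, was the third highest for *KCNJ15*. TC2288 also had the highest mean of 3 parathyroid markers, at 10.6 against a median of 2.23 over all tumors, and the part of parathyroid tissue in its *KCNJ15* level was not tested.

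At low levels counting error limits the order. At the median tumor the Poisson SD of the log2 count was 0.43 for *CAPN6* and 0.39 for *KCNJ15*, against 0.05 for *STOML3*. Neighbours in the order of tumors below about 20 normalized counts are therefore not separated by these data.

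The highest tumors differed from gene to gene. No tumor stood above the median for all 7 genes, 4 did so for 6 genes, and 2, TC1020 and TC2289, for none. Among the 5 lowest tumors of each gene, TC2289 appeared for 6 genes and TC1936 for 5, while TC1020, TC1473 and TC1088 appeared for 3 each. Those shared low values contrast with the upper end. There, TC1241, TC1953 and TC2089 each appeared among the 5 highest for 3 genes and no tumor for more. TC2289, TC1936, TC1020 and TC1473 had C-cell marker means of 11.7, 15.3, 13.8 and 12.2, and TC1088 of 3.38. TC1601, with the second highest C-cell marker mean at 14.5, was among the 5 lowest tumors for none of the genes. It came just above them, with rank 6 from the bottom for *STOML3*, *CAPN6*, *LRP2* and *SLC14A2* and rank 7 for *NFATC1*. For *ANPEP* its rank was 17 and for *KCNJ15* 20. The choice of the genes already favored low values in tumors with C-cell transcripts, so nothing is read from these values.

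**Figure D2:**
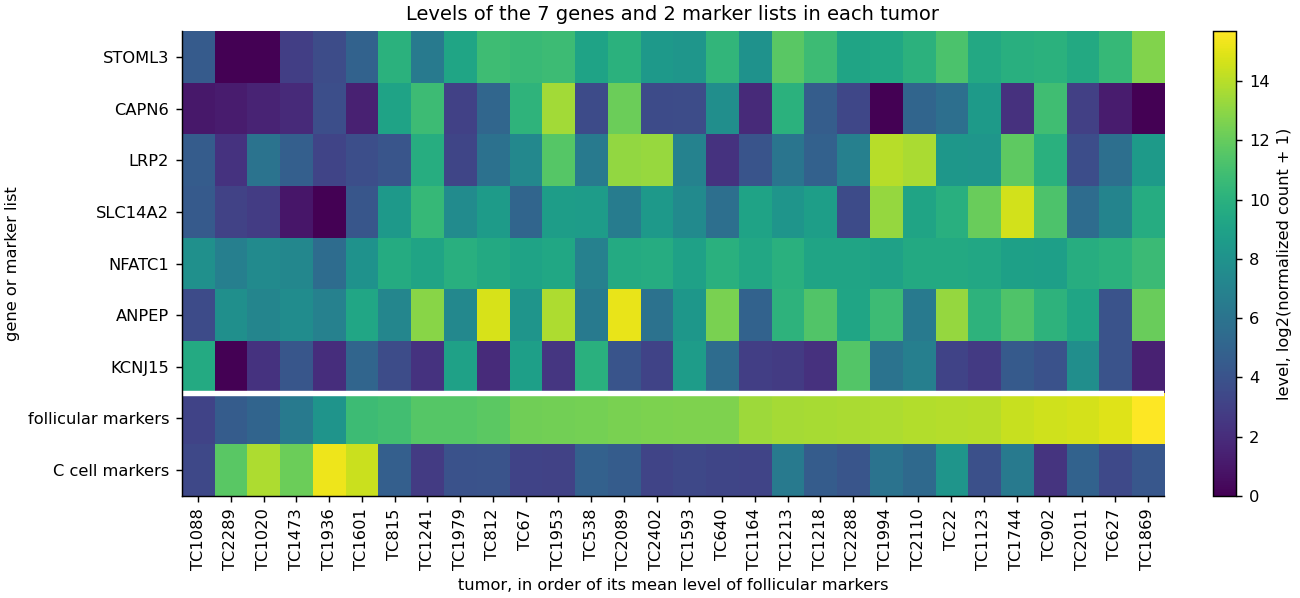
Levels of the 7 genes, and below the white line the mean levels of the follicular and C-cell marker lists, as log2 of the normalized count plus 1 by color. The 30 tumors are ordered from the lowest follicular marker mean (TC1088, 3.13) to the highest (TC1869, 15.7), and the brightest cells of *CAPN6*, *LRP2*, *ANPEP* and *KCNJ15* fall in different tumors.

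Between genes, the order of the tumors was compared by Spearman's rho over the 30 tumors. All such values are descriptions: the points share libraries, depth and a pooling of tumor types, and the genes were chosen on these tumors. Of 21 pairs, 16 had a positive and 5 a negative rho, with a median of 0.26. A rho of 0.6 was reached by 2 pairs, and 11 had an absolute rho under 0.3. Over all genes, 0.118% to 1.68% reached 0.6 with a given member. The members were chosen by the same contrast, so nothing is read from the difference. With Pearson's r, 7 of the 21 values moved by 0.1 or more.

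*STOML3* and *NFATC1* had the highest rho, 0.67, with a Pearson's r of 0.79. A dense cloud of tumors was high for both, and TC2289, TC1020, TC1473, TC1936, TC1088 and TC1601 trailed toward low values of both. TC538 lay off this course, with *STOML3* at 9.09 and *NFATC1* at 6.90. The pooled rho covers both the cloud and the trailing tumors. As a partial rho it was 0.65 given the C-cell markers and 0.53 given the follicular markers. A partial rho on ranks does not fully remove the pooling of tumor types.

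*LRP2* and *SLC14A2*, the endocytic receptor and the urea transporter, had a rho of 0.62 and a Pearson's r of 0.60. TC1994 was the highest for *LRP2* and second for *SLC14A2*, and TC1744 was the highest for *SLC14A2* and among the 5 highest for *LRP2*. The pair was not tight: TC2089, with *LRP2* at 13.11, had *SLC14A2* at 6.61. The partial rho was 0.59 given the C-cell markers and 0.51 given the follicular markers, both under 0.6.

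The other pairs had a lower rho. *STOML3* with *ANPEP* had 0.52, *STOML3* with *SLC14A2* 0.46, *CAPN6* with *ANPEP* 0.46 and *STOML3* with *CAPN6* 0.42. Pearson's r was higher for *STOML3* with *SLC14A2*, at 0.64, and for *SLC14A2* with *NFATC1*, at 0.56 against a rho of 0.26. It was lower for *STOML3* with *ANPEP*, at 0.41. *KCNJ15* stood apart from the rest: its rho was negative with 5 of the other members, lowest at -0.31 with *ANPEP*, and 0.04 with *LRP2*. With *NFATC1* it was -0.04, and 0.01 without TC1088.

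**Figure D3:**
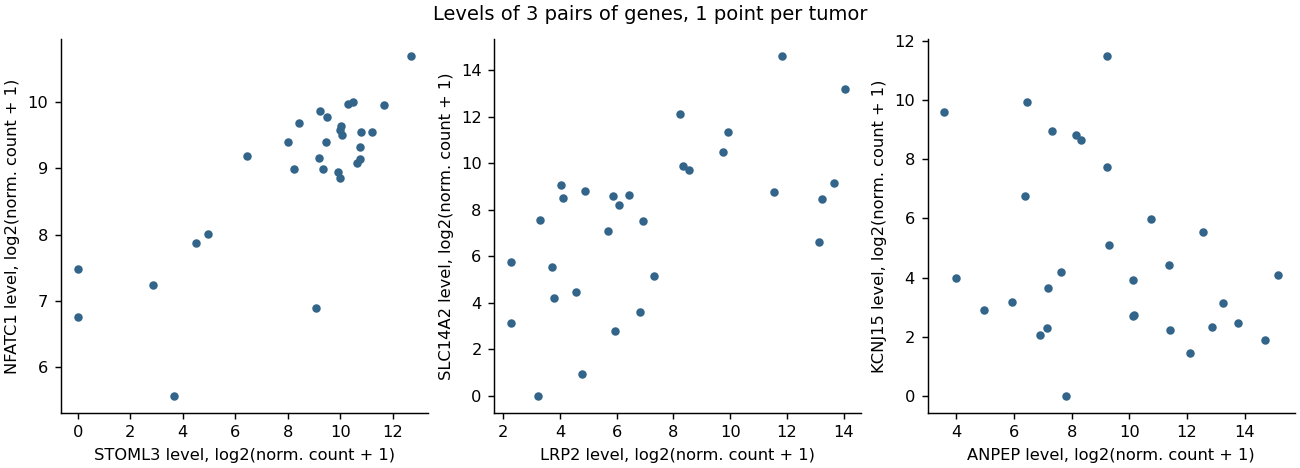
Levels of *STOML3* against *NFATC1*, *LRP2* against *SLC14A2* and *ANPEP* against *KCNJ15*, as log2 of the normalized count plus 1 on both axes, with 1 point for each of 30 tumors. Spearman's rho was 0.67, 0.62 and -0.31, and in the first panel a dense cloud with both genes high is followed by a few tumors low in both.

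The label under which the genes were grouped was set beside follicular markers: among them thyroglobulin, the TSH receptor, PAX8, iodide carriers, the dual oxidase and its maturation factor, and the iodotyrosine deiodinase. With their mean level, rho was 0.60 for *SLC14A2*, 0.59 for *STOML3*, 0.51 for *NFATC1* and 0.43 for *LRP2*. It was 0.25 for *ANPEP*, 0.07 for *KCNJ15* and 0.02 for *CAPN6*. Without TC1088 these last values were 0.17 for *ANPEP*, 0.17 for *KCNJ15* and -0.06 for *CAPN6*. The order of the tumors by *CAPN6* or *KCNJ15* thus had little in common with their order by follicular markers.

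All 9 follicular markers had a positive rho with *STOML3*, *SLC14A2*, *NFATC1* and *ANPEP*, 8 with *LRP2*, 5 with *CAPN6* and 3 with *KCNJ15*. Without TC1088 the counts were 7 for *ANPEP*, 3 for *CAPN6* and 6 for *KCNJ15*. For *SLC14A2*, 5 reached 0.6, among them *DUOX2* at 0.65, *PAX8* at 0.65, *IYD* at 0.62 and *DUOXA2* at 0.61. *IYD* at 0.65 and *PAX8* at 0.61 did so for *STOML3*, and *PAX8* at 0.67 and *DUOXA2* at 0.62 for *NFATC1*. None did for the other members. Over all genes, 0.722% reached 0.6 with *SLC14A2*, 1.31% with *STOML3* and 1.68% with *NFATC1*. The choice of the genes favored likeness to follicular markers in these pooled tumors, so nothing is read from these counts. Without TC1088, 3 of the 5 stayed at 0.6 or above for *SLC14A2*, with *IYD* at 0.60 just under the limit and *DUOXA2* at 0.58, while *PAX8* stood at 0.57 for *STOML3* and *DUOXA2* at 0.59 for *NFATC1*.

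With the mean of the C-cell markers every member had a negative rho, from -0.38 for *CAPN6*, -0.32 for *NFATC1* and -0.31 for *SLC14A2* to -0.24 for *LRP2*, -0.22 for *STOML3*, -0.13 for *KCNJ15* and -0.06 for *ANPEP*. The only C-cell marker at -0.6 or lower was *PCSK1*, a prohormone convertase, at -0.67 with *STOML3* and -0.63 with *NFATC1*. For *CALCA*, the calcitonin gene, rho with *STOML3* was -0.05. The choice of the genes favored a negative rho with C-cell markers, so nothing is read from the sign.

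Among markers of other cells, 5 T-cell markers had a rho of their mean of -0.54 with *STOML3*, -0.54 with *NFATC1* and -0.39 with *SLC14A2*, and between -0.25 and 0.07 with the rest. NFATC1 is known from T cells, and 4 of the 5 markers had a negative rho with it. The mean of the T-cell markers ranged from 3.83 to 7.28, and *CD3D* held at most 39 counts. That mean was highest in TC1473 at 7.28, TC2289 at 6.95, TC1601 at 6.29 and TC1020 at 6.06, which were high in C-cell markers. As the choice of the genes favored low values in such tumors, nothing is read from the negative rho with T-cell markers. For 3 parathyroid markers, whose mean ranged from 1.10 to 10.6, rho was -0.59 with *STOML3* and -0.54 with *NFATC1*, between -0.40 and -0.25 with the next 4 members, and 0.06 with *KCNJ15*. Of its genes, *CASR*, the calcium-sensing receptor, had -0.58 with *SLC14A2*, and -0.67 without TC1088. With *SLC14A2*, *PTH* had -0.27 and *GCM2* 0.08. With *STOML3*, *CASR* had -0.47, *PTH* -0.53 and *GCM2* -0.0007. Besides TC2288, the parathyroid mean was highest in TC1936 at 8.26, TC1473 at 7.40, TC1020 at 6.25, TC2289 at 5.42 and TC1601 at 5.26. These tumors were also high in C-cell markers. The choice of the genes favored low values there, so nothing is read from the negative rho.

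Endothelial markers, a list of 6 with means from 8.00 to 11.9, had their highest rho with *ANPEP* at 0.46, *STOML3* at 0.45 and *SLC14A2* at 0.44, and the lowest with *KCNJ15* at 0.03. Fibroblast markers, 6 genes with means from 6.51 to 14.2, had a rho between -0.06 and 0.26 with every member. For the 4 myeloid markers with a row (means 7.53 to 10.2), rho was 0.00 with *ANPEP*, a gene that myeloid cells carry, and lowest with *NFATC1* at -0.36. For 4 osteoclast markers (4.21 to 9.12), it was -0.39 with *NFATC1*, a regulator of osteoclast formation, and highest with *KCNJ15* at 0.29. Skeletal muscle (5 genes, 3.27 to 9.16) gave values from -0.14 to 0.26 and adipocytes (2 genes with a row, 1.10 to 6.56) from -0.33 with *SLC14A2* to 0.16 with *CAPN6*. The part of each of these cell types in the members' levels was not tested.

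**Figure D4:**
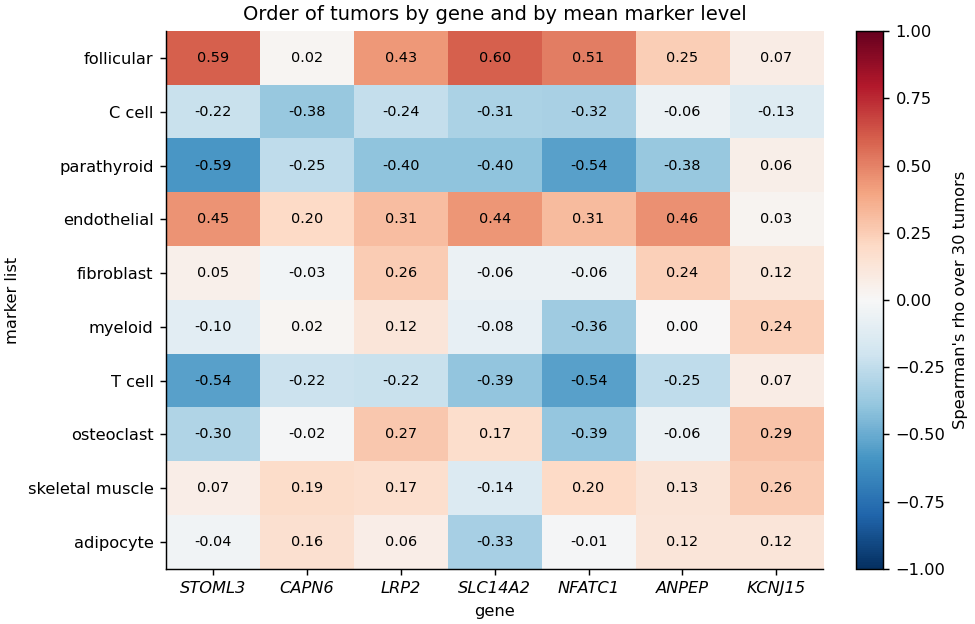
Spearman's rho over 30 tumors between each gene's level and the mean level of each of 10 marker lists, printed in each cell and shown by color from -1 to 1. The follicular row runs from 0.60 for *SLC14A2* to 0.02 for *CAPN6*, and the C-cell row is negative throughout. The choice of the genes favored both signs.

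Next, each gene was set against the 18710 others that reached 10 counts in 5 tumors or more. A gene was called like a member at a rho of at least 0.6 and opposite at -0.6 or lower. The genes named are from the 5 highest and 3 lowest with a symbol and a median of at least 100 normalized counts.

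Many genes ordered the tumors as *STOML3* did: 246 were like it (1.31% of those tested) and 156 opposite (0.834%). The most alike were *LPAR2*, a lysophosphatidic acid receptor, at 0.87, *C17orf113* at 0.86, *ZNF385C* at 0.83, *RDH10*, a retinol dehydrogenase, at 0.79 and *TRMO*, a tRNA methyltransferase, at 0.78. Opposite were *TRIT1*, a tRNA isopentenyltransferase, at -0.82, *HSPA4L*, a heat shock protein, at -0.76 and *NABP1*, which binds single-stranded DNA, at -0.75. *LPAR2* spanned levels from 2.21 to 9.24, and *TRIT1* only from 7.37 to 10.26, so that a high rho did not require a wide range.

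*NFATC1* had 315 genes like it (1.68%) and 160 opposite (0.855%), the most of the 7. *INAFM2* led at 0.88, followed by *GPR161*, a ciliary receptor, at 0.83, *PPT2*, a lysosomal thioesterase, at 0.82, *EGFL8* at 0.79 and *ITPKB*, a kinase of inositol trisphosphate, at 0.78. Lowest were *RPGR*, a ciliary protein, at -0.82, *NABP1* at -0.78 and *SINHCAF* at -0.77. *STOML3* and *NFATC1* shared 95 of their like genes, which is 38.8% of those of *STOML3* and 30.3% of those of *NFATC1*, each member left out of the other's set.

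*ANPEP* had 269 genes like it (1.44%) and 126 opposite (0.673%). Among the closest were matrix proteins: *NID2*, a basement membrane nidogen, at 0.81 and *LOXL1*, a lysyl oxidase of elastic fibers, at 0.80. *CRAT*, carnitine acetyltransferase, at 0.81 and *SERPINF1*, a secreted serpin, at 0.79 stood beside them. *RPS24*, a ribosomal protein, was lowest at -0.77, then *TASP1* at -0.75 and *OCRL*, an inositol phosphatase, at -0.73. *ANPEP* shared 44 like genes with *STOML3* (16.4% of its own, 17.9% of those of *STOML3*).

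*SLC14A2* had 135 genes like it (0.722%) and 108 opposite (0.577%). *IL1R2*, the decoy receptor of interleukin-1, was the closest at 0.86, with levels from 3.79 to 13.39. *CRTC3*, a coactivator of CREB, at 0.75, *ITIH5* at 0.74 and *DDX31*, a helicase, at 0.72 followed. The lowest were *GEMIN6* at -0.69, *RUBCN* at -0.68 and *SMYD4* at -0.68.

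Fewer genes shared the order of *LRP2*, *CAPN6* and *KCNJ15*. *LRP2* had 44 like (0.235%) and 33 opposite (0.176%). *KLHL32* at 0.74, *FEM1C*, part of a ubiquitin ligase, at 0.73, *PRDM1*, a transcriptional repressor, at 0.71, *FAM221A* at 0.70 and *THSD1* at 0.70 were highest. *PKDCC*, a secreted kinase, at -0.71, *CCDC78* at -0.66 and *ALKBH2*, a DNA repair enzyme, at -0.63 were lowest.

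*CAPN6* had 29 like (0.155%) and 17 opposite (0.0909%). They were led by *SUN1*, a nuclear envelope protein that links to the cytoskeleton, at 0.70, *GREB1L* at 0.67, *SLC39A14*, a zinc and manganese carrier, at 0.67, *HMGB3* at 0.67 and *EPHA4*, an ephrin receptor, at 0.66. *MXI1*, a MYC antagonist, was lowest at -0.73, then *RASSF5* at -0.67 and *ENPP2*, the enzyme autotaxin, at -0.66.

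*KCNJ15* had the fewest like genes, 22 (0.118%), and 21 opposite (0.112%). *PIGR*, the receptor that carries immunoglobulins across epithelia, at 0.69 and *C1S*, a complement protease, at 0.69 came first, then *TULP3* at 0.65, *OSBPL3* at 0.64 and *PON2* at 0.63. Without TC1088, *PON2* stood just under the limit. *PIGR* varied from 3.13 to 15.84. *INO80C*, *ZNF7* and *TRAPPC9* were lowest at -0.68 each. No gene like *KCNJ15* was like any other member. Of all genes, 0.155% to 1.68% were like each of the other members. With 22 genes, few or none would be shared at such shares, so nothing is read from this.

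Of the 35 genes that this rule took as high, 32 kept a rho of at least 0.6 when the 2 tumors farthest from the member's median were left out, and 33 given the C-cell markers. Without TC1088 it was 34. Of the 21 taken as low, 20 and 19 stayed at -0.6 or lower. With Pearson's r, 31 of the 35 and 16 of the 21 stayed past the limit. The C-cell mean had a median of 4.38, so its ranks mostly order tumors that are low in it. The values given these markers therefore do not show that likeness is free of the pooling of tumor types. *CAPN6* and *KCNJ15*, with the smallest sets, were also those with the most counting error in their order, and its part in the size of the sets was not tested.

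Families and known partners of each gene were listed as well, 92 genes in 7 lists, of which 86 had a single row and 78 passed the count filter. Of these 78, 1 (1.28%) was like its member and 0 were opposite. Over all genes, the share like a member ran from 0.118% for *KCNJ15* to 1.68% for *NFATC1*, with 1.31% for *STOML3*. A single gene is too few to read anything from these shares. The members were also chosen in these pooled tumors, which bears on each rho of the lists, so nothing is read from signs or medians. The like gene was *PIEZO1*, a mechanosensitive channel, with a rho of 0.62 to *STOML3*, and 0.58 without TC1088. Its level ran from 9.17 to 13.21. *PIEZO2* had 0.01 and the stomatin relatives *STOML1* 0.52, *STOML2* 0.09 and *STOM* -0.16. The median over the 8 tested relatives was 0.15, against -0.01 over all genes.

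For *SLC14A2*, the other urea transporter, *SLC14A1*, had the highest rho of its list at 0.59, and 0.69 without TC1088. *SLC14A1* ranged from 0 to 5317 counts. The water channels *AQP1* at 0.44, *AQP4* at 0.35, *AQP2* at 0.32 and *AQP5* at 0.31, and the urea-producing arginase *ARG2* at 0.46, were positive. The water channels *AQP6* at -0.08, *AQP11* at -0.07 and *AQP9* at -0.06 and the arginase *ARG1* at -0.16 were negative. Median levels were low for *AQP4* at 2.89, *AQP2* at 3.20, *AQP6* at 3.87 and *AQP9* at 3.96. The median over 10 tested genes was 0.32, against -0.01 over all genes.

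Of its endocytic partners, *LRP2* had a rho of 0.29 with *CUBN* (cubilin), 0.27 with the adaptor *DAB2* and 0.22 with the chaperone *LRPAP1*. The receptor *SORL1* was highest at 0.33. The median over 12 genes was 0.19, against 0.00 over all genes, and *LRP1*, another giant receptor of the family, stood at 0.00. None of them varied as *LRP2* did, with SDs up to 2.28 for *LRP1B* against 3.55.

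*NFATC1* differed in sign: 11 of 13 tested genes of its pathway had a negative rho, with a median of -0.29 against -0.02 over all genes. *DYRK1A*, a kinase that returns NFAT proteins to the cytoplasm, was lowest at -0.48. The calcineurin subunits *PPP3CA* at -0.45, *PPP3CC* at -0.42, *PPP3R1* at -0.41 and *PPP3CB* at -0.29 and the relative *NFAT5* at -0.45 were also negative. *NFATC4* at 0.36 and *CABIN1*, a calcineurin inhibitor, at 0.33 were the positive ones. Given the C-cell markers *NFAT5* stood at -0.62. Because the choice of the genes favored low *NFATC1* in tumors with C-cell transcripts, nothing is read from these signs.

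The remaining lists stayed near 0 in their medians. For *CAPN6*, 13 other calpains and calpain regulators lay between -0.25 for *CAPN1* and 0.21, with a median of -0.03 against -0.01 over all genes. For *ANPEP*, 11 peptidases had a median of -0.08 against 0.00, with *NPEPPS*, a cytosolic aminopeptidase, lowest at -0.55. For *KCNJ15*, 11 inward rectifiers had a median of -0.11 against 0.00. *KCNJ11*, a subunit of ATP-sensitive channels, was lowest at -0.47, and *KCNJ10* and *KCNJ16*, subunits of kidney potassium channels, stood at 0.00 and -0.11.

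**Figure D5:**
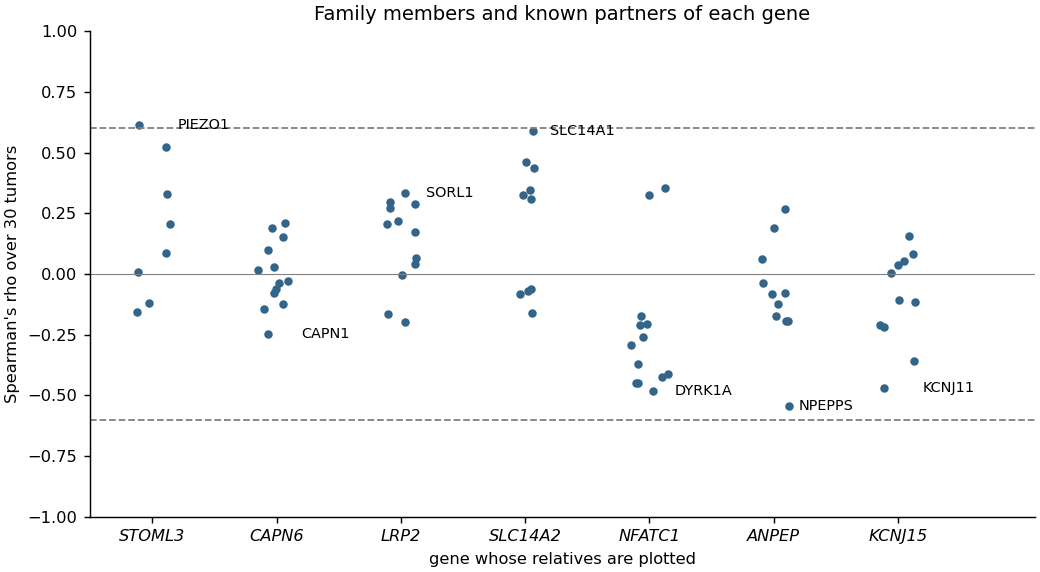
Spearman's rho over 30 tumors between each of the 7 genes and its tested family members and partners, 1 point per gene and 78 points in all, with the gene of largest absolute rho named. Dashed lines mark 0.6 and -0.6, and only *PIEZO1* lies beyond them. Most points of the *NFATC1* column lie below 0, and nothing is read from the signs.

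The 7 genes lie on 7 different chromosomes in the RefSeq table, so none shares a neighborhood with another. Of the nearest named genes on either side, 13 passed the filter and 3 reached 0.6. They lay beside *STOML3* and *ANPEP*, for which 1.31% and 1.44% of all genes did so, and 3 genes are too few to read anything from the difference. Both neighbors of *STOML3* were among them, *FREM2*, an extracellular matrix protein, at 0.67 and *PROSER1* at 0.61. *AP3S2* beside *ANPEP* stood at 0.60, and 0.59 without TC1088, and *MESP2* on its other side at 0.45.

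Beside *SLC14A2* lay *SLC14A1* at 0.59 and *SETBP1* at 0.17, beside *NFATC1* *CTDP1* at 0.45 and *ATP9B* at 0.17, and beside *LRP2* *DHRS9* at 0.46 and *BBS5* at -0.13. *PAK3*, the tested neighbor of *CAPN6*, stood at 0.30, and *DCX* on its other side did not pass the filter. *KCNJ6* at 0.08 and *ERG* at 0.12 flanked *KCNJ15*. No protein-coding gene overlapped a member in that table, but the strand setting of the counting is not given in the sources used here, and reads from unlisted antisense transcripts cannot be told apart.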

How the data were processed

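Total RNA from frozen canine thyroid tumors was extracted with TRIzol and made into ribosome-depleted libraries, with 1 library per tumor. The authors used STAR for alignment to the CanFam3.1 genome and for counting, and the deposited values are raw counts per Ensembl gene in 1 table, with symbols where known. The strand setting is not given in the sources used here. The table held 0 columns that belong to no sample, and 0 pairs of tumors had identical counts. Of its 30424 rows, 15780 carried a symbol.

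The sample labels name no tumor type. All 30 tumors were therefore left unassigned, no difference between groups was tested, and no p-value is given. The members and all lists of genes were chosen with earlier results of these data known.

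Counts were divided by median-of-ratios size factors computed over 15611 genes with counts in every tumor. Levels are log2 with a pseudocount of 1. Likeness is Spearman's rho over 30 tumors with genes that reached 10 counts in 5 tumors or more, with a limit of 0.6. Named genes were the 5 highest and 3 lowest with a symbol and a median of at least 100 normalized counts, members left out, and 2 of these are not reported here. In each list of related genes, those past the limit were named, or otherwise the largest absolute rho, and so were the nearest named neighbors. Other listed relatives and partners given with values were chosen after their values were seen. A marker list was summarized by the mean level of its genes with 1 row (51 of 54). Neighbor order and overlaps came from coordinates in the RefSeq table of another assembly, in which 15339 symbols and all 7 members matched. They were not checked in CanFam3.1. No sequences of the members were used here.

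Reads carried no molecular identifiers, and intervals and the floor of 3 counts cover counting error only. The likeness calculation was tested on simulated data. Alternatives were TMM (edgeR 4.0.16) and CPM scaling, other pseudocounts, filters and limits, Pearson's r, partial rho, and omission of TC1088, of TC538 or of the 2 tumors farthest from a member's median. Python 3.11.15, numpy 2.4.6, pandas 2.3.3, scipy 1.17.1, matplotlib 3.10.9 and R 4.3.3 were used.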

Additional observations from a re-analysis of the deposited data

How the results depend on the processing

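Median levels and SDs of the 7 genes moved by less than the spread between tumors under TMM scaling, CPM scaling, a pseudocount of 8 and without TC1088 or TC538. The number of genes past the limit in either direction depended on the measure. With Pearson's r it was 1571 in place of 402 for *STOML3*, 1426 in place of 475 for *NFATC1*, 608 in place of 243 for *SLC14A2*, 211 in place of 395 for *ANPEP*, 31 in place of 77 for *LRP2* and 23 in place of 46 for *CAPN6*. Without the 2 farthest tumors it was 221 for *STOML3*, 114 for *SLC14A2*, 646 for *ANPEP* and 20 in place of 43 for *KCNJ15*. Given the C-cell markers it was 16 for *CAPN6* and 49 for *LRP2*. The cause was not tested. Of the related genes, 4 passed a limit of 0.5, 0 a limit of 0.7, and 2 the limit of 0.6 given the C-cell markers, against 1. Without TC1088 the count was again 1, but the gene was *SLC14A1* at 0.69 in place of *PIEZO1* at 0.58. The calls of single markers, neighbors and most similar genes without TC1088 were added after seeing the data. For the follicular markers they gave 5 calls over the 7 genes in place of 9.

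No paired analysis was possible because the labels give no groups. The search of promoter letters was not run, since no sequences were used here. Depth limits the order of tumors for *CAPN6* and *KCNJ15*, with 14 and 12 tumors under 10 counts.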

Other observations

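Levels of *CAPN6* and *LRP2* showed gaps in the upper part of their range, which are given here as values for each tumor above the gap. For *CAPN6*, 21 tumors lay at 5.75 or lower, and the 9 others were TC640 at 7.74, TC1123 at 8.55, TC815 at 9.08, TC1213 at 10.04, TC67 at 10.17, TC1241 at 10.75, TC902 at 10.89, TC2089 at 12.15 and TC1953 at 13.53. For *LRP2*, 24 tumors lay at 9.93 or lower and 6 at 11.54 or higher, of which TC1953 and TC2089 were also above the gap of *CAPN6*. For *KCNJ15*, the largest gap, of 1.57, separated TC2288 alone from the 29 others.

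In *STOML3*, *SLC14A2*, *NFATC1* and *ANPEP* the largest gap lay at the low end. It left TC1020 and TC2289 below for *STOML3*, TC1936 and TC1473 for *SLC14A2*, TC1936 for *NFATC1*, and TC1088, TC627 and TC1164 for *ANPEP*. The gaps were 2.88, 1.83, 1.19 and 0.98 log2 units, and the sets of tumors they set off differed between the genes.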
